A study of Mus musculus with 6 samples.

Results

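Neuregulins and insulin-like growth factors are secreted or membrane-bound mitogens of the developing heart. Neuregulins are made largely by endocardial and endothelial cells and bind ErbB3 or ErbB4, which pair with ErbB2, a receptor without a known ligand of its own, to drive trabeculation and cardiomyocyte division. IGF1 binds the receptor tyrosine kinase IGF1R, and both families signal through PI3K and Akt and through Ras and Erk. Open chromatin was examined here at 8 genes of these families out of 21911 protein-coding genes annotated. They were 3 ligand genes (Nrg1, Nrg4 and Igf1) and 5 receptor genes (Erbb2, Erbb3, Erbb4, Egfr and Igf1r), chosen by name. All peaks that overlapped a gene body or the 10 kb on each side of it were taken, whatever gene they may act on.

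Omni-ATAC-Seq, in which a transposase inserts adapters into open chromatin, had been run on nuclei of mouse hearts of postnatal day 1, with 50000 nuclei for each library, after a 2.2 M sucrose cushion. The 6 libraries formed 3 groups of 2 independent biological replicates. Input held wildtype nuclei straight from the cushion, and PCM1 held wildtype nuclei pulled down with an antibody to PCM1, a centriolar satellite protein that coats cardiomyocyte nuclei. In the authors' scheme, Input was an aliquot of the cushion nuclei and the remainder went to pull-down. Libraries of different groups may therefore share hearts. Which of them do is not stated, and the test used here treated all 6 as independent. Myc held nuclei pulled down with a Myc antibody from hearts with Nkx2-5 Cre/+ and the R26RSun1-Myc-Egfp/+ allele, in which the Myc-tagged nuclear envelope protein is present wherever the Nkx2-5 Cre driver has been active, so this group also differed from the others in genotype. The Nkx2-5 lineage includes smooth muscle and endothelial cells beside cardiomyocytes, and the dense cushion had been chosen to deplete the nuclei of such other cells from all groups before any pull-down. The peak lists of replicates 1 and 2, in that order here and throughout, held 131500 and 75336 peaks (Input), 107216 and 108513 (Myc) and 83139 and 81487 (PCM1). The genome-wide background per position, which scales with depth, was 3.96 and 1.02 (Input), 1.44 and 1.44 (Myc) and 0.977 and 0.903 (PCM1), so that Input replicate 1 was 4.38 times as deep as PCM1 replicate 2. Where a library lists no peak, nothing was detectable at its depth.

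The strength of a peak is given as its rank percentile, the percentile of its q-value among all peaks of the same library (100 is the strongest). Differences between groups were tested on the pileup, the whole number of extended reads stacked at a summit, which was recovered from the fold and the p-value of each peak and is given relative to the library's median. The test was limma, with Benjamini-Hochberg adjustment over the 48861 regions that held a peak in all 6 libraries and a threshold of 0.05. A region is a stretch of overlapping peaks of any libraries. P-values measure the spread between these samples. Rank percentiles and marker sums are given as values without a test. With 15 ways to choose 2 of 6 libraries, the smallest p that an exact permutation test (one-sided) of such a value allows is 0.0667, which is above 0.05.

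The labelled tissue was checked with markers. All 6 cardiomyocyte markers had a promoter peak in 6 of 6 libraries. Their summed promoter pileup over background was 1044 and 1158 (Input), 660.1 and 756 (Myc) and 1292 and 1410 (PCM1), with the alpha myosin gene Myh6 the most open of them. The Myc libraries were thus the lowest for cardiomyocyte promoters and the groups did not overlap. The 6 endothelial and endocardial markers, led by Cdh5, summed to 145 and 129 (Input), 199 and 227 (Myc) and 162 and 178 (PCM1). The gene said to lead a list was highest over all libraries together, though not always in each library. The 6 fibroblast markers, led by Pdgfra, summed to 172 and 166 (Input), 247 and 249 (Myc) and 174 and 146 (PCM1). Both lists were thus highest in Myc, and the collagen gene Col3a1 had no promoter peak in 1 PCM1 library. The 6 smooth muscle and pericyte markers, led by Tagln, summed to 198 and 184 (Input), 180 and 196 (Myc) and 208 and 167 (PCM1), and the 6 epicardial markers, led by Tbx18, to 147 and 144, 190 and 168, and 143 and 125. The epicardial list was thus also highest in Myc. Of the 6 macrophage markers, Csf1r, Cd68, Adgre1, Ptprc and Cx3cr1 had no promoter peak in any library, and the list summed to at most 6.96, from Mrc1. In nuclei measured in bulk, fewer cells of a type and less signal per cell cannot be told apart, and the part of these marker differences in the results at the 8 genes was not tested.

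The 8 windows held 149 and 73 peaks (Input), 123 and 127 (Myc) and 76 and 82 (PCM1), which is between 0.0914 and 0.117% of the peaks of a library. Merged over the libraries these were 200 regions, of 169881 in the series. Most of them, 173, had their summit in an intron, while 1 was in a coding exon, 8 in a UTR, 3 in a noncoding exon, 10 upstream of the gene and 5 downstream. A peak in 6 of 6 libraries was found for 45 of the 200 regions (22.5%), against 28.8% of all regions. A peak in 1 library alone was found for 71 of them (35.5%), against 30.4% of all regions. All 8 genes had a peak within 1 kb of an annotated TSS in 6 of 6 libraries, which held for 61.1% of protein-coding genes. The strongest peak of the window lay outside the promoter in 6 of 6 libraries at 3 of 8 genes (Igf1, Erbb3 and Egfr), against 25.1% of protein-coding genes.

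Nrg1, the neuregulin on which cardiac trabeculation depends, spans 1069479 bp on the minus strand of chromosome 8. It held 24 and 7 peaks (Input), 24 and 25 (Myc) and 8 and 9 (PCM1), or between 0.643 and 2.29 peaks per 100 kb, fewer than the median of protein-coding genes in each library, which was between 4.77 and 8.11. Its strongest peak was at an internal promoter, chr8:32008458-32009909, with the summit at -213 bp from an annotated TSS and 874325 bp inside the gene. There the rank percentile was 93.3 and 89.2 (Input), 90.9 and 90.3 (Myc) and 92.4 and 90.4 (PCM1). The summit pileup was 258 and 72 (Input), 100 and 100 (Myc) and 75 and 66 (PCM1), which relative to the library medians is between 2.13 and 2.5. Both Myc libraries were the lowest on that scale while Input and PCM1 overlapped, and no contrast passed the threshold (limma, Myc minus PCM1 log2 fold change -0.15 ± 0.17 SE, adjusted p = 0.558). With the deposited fold that difference was -0.48 and passed (adjusted p = 0.0374). The 5′ end of the gene, in contrast, had a peak only in Input replicate 1, the deepest library, at percentile 22.9. The annotated start that was open in every library was therefore the internal one.

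Within the introns of Nrg1, 3 further regions had a peak in all 6 libraries, with summits at 32044538, 32176346 and 32293323, and none passed the threshold of a contrast. The strongest of them, at 32293323, had percentiles of 88.4 and 70.9 (Input), 89.1 and 82.3 (Myc) and 76.8 and 78.5 (PCM1). Nrg1 also held most of the regions found in both Myc libraries and no other, with summits at 31933122, 31939822 and 32209857. All were weak, with pileups between 6 and 13 and percentiles of at most 32.1. Over the 8 windows, 4 of 200 regions (2%) had this pattern, the fourth being in intron 3 of Igf1r at 68168727, against 1.84% of all regions, so the share was near that of the genome.

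Nrg4, a ligand of ErbB4, lies on the minus strand of chromosome 9, and its promoter faces Tmem266. The region over the start, chr9:55326330-55327352, had percentiles of 90.3 and 79.8 (Input), 90.5 and 88.4 (Myc) and 86.5 and 73.1 (PCM1), with pileups of 203 and 47, 101 and 79, and 54 and 31. Because the summit was also within 1 kb of a TSS of Tmem266, the signal cannot be assigned to Nrg4 alone. An intron 2 region, chr9:55311424-55311957, was nearly as strong and lay 13456 bp downstream of the nearest TSS. Its percentiles were 86.8 and 81.1 (Input), 88.4 and 84.9 (Myc) and 81.4 and 81.8 (PCM1), and it was the strongest peak of the window in Input replicate 2 and PCM1 replicate 2. Neither region passed the threshold of a contrast, except that the first was higher in Myc than in PCM1 without PCM1 replicate 1 (limma, log2 fold change 0.85, adjusted p = 0.00645). A weak region in intron 4, with its summit at 55252274, was the only 1 of the 200 with a peak in both Input libraries and no other (0.5%, against 1.08% of all regions), with pileups of 23 and 8.

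Igf1, the gene of the circulating and local growth factor, lies on the plus strand of chromosome 10. It had the lowest mean percentile of the strongest peak among the 8 genes, although Erbb4 was lower in Myc replicate 2. Without peaks near a TSS of another gene Erbb3 was lower (46.1 against 78.6), by a filter that left only its promoter region. The percentile of the strongest peak of Igf1 was 84.1 and 66.2 (Input), 85.2 and 86.6 (Myc) and 75.9 and 73.4 (PCM1). Both Myc libraries were above the others. That peak was intronic in every library, at 87893438 or at 87927413, and promoter peaks were weaker, with percentiles of 64.9 and 23.2 (Input), 55.0 and 65.6 (Myc) and 55.1 and 61.3 (PCM1). The promoter region with a peak in all 6 libraries, chr10:87860129-87861186, had its summit in a UTR 358 bp after a TSS and passed no contrast on the pileup (limma, Myc minus PCM1 log2 fold change -0.35, adjusted p = 0.401), but was lower in Myc than in PCM1 with the deposited fold (-0.80, adjusted p = 0.0449).

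The intron 2 region of Igf1, chr10:87893266-87893764, had pileups of 106 and 16 (Input), 56 and 44 (Myc) and 12 and 18 (PCM1). Relative to the library medians these were 0.938 and 0.533, 1.22 and 0.936, and 0.400 and 0.621, so Myc and PCM1 did not overlap while Input lay across them. It was higher in Myc than in PCM1 (limma, log2 fold change 1.10 ± 0.33 SE, adjusted p = 0.00985), and the call was lost without Myc replicate 1 (0.91, adjusted p = 0.140) and without PCM1 replicate 1 (0.78, adjusted p = 0.0919), and with the deposited fold (0.70, adjusted p = 0.0645). The other intronic region, chr10:87926625-87927721, passed no contrast, with values of 0.832 and 0.867 (Input), 1.09 and 1.38 (Myc) and 0.967 and 0.931 (PCM1).

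**Figure D1:**
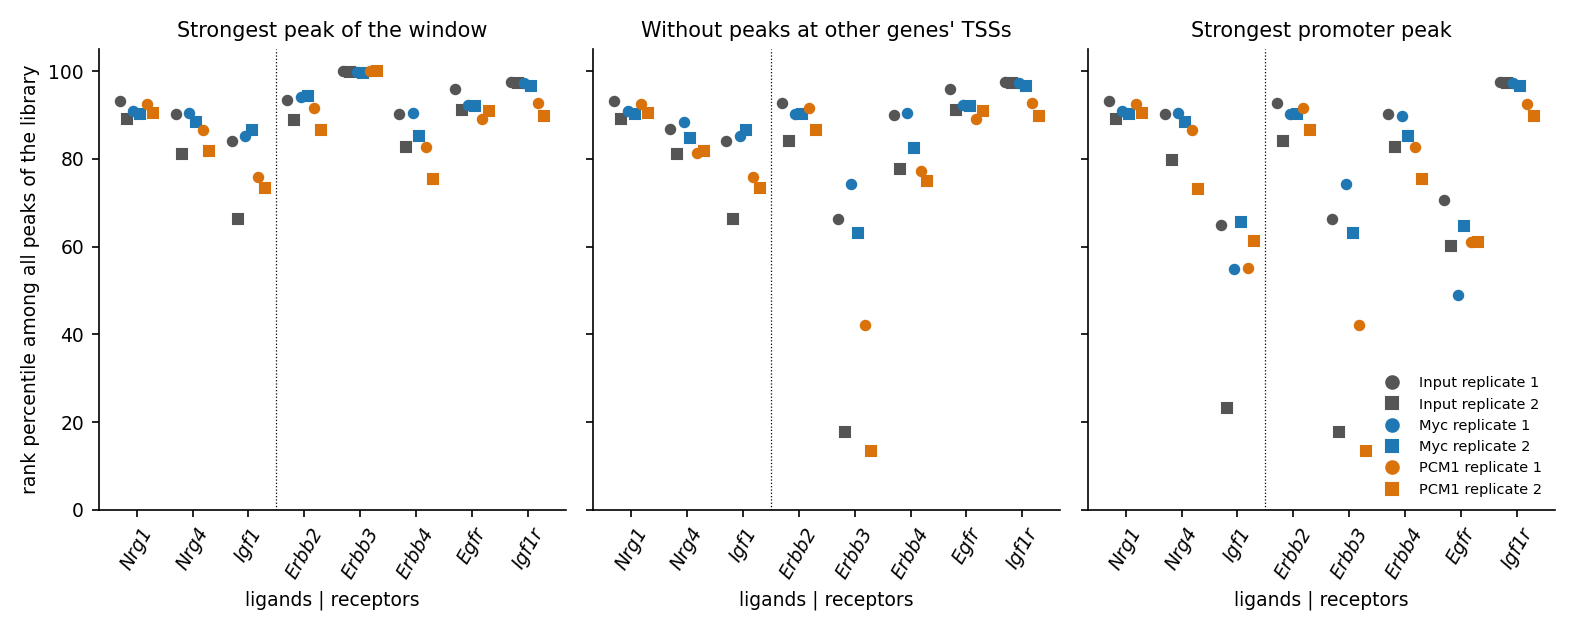
Rank percentile among all peaks of the library (y axis, 0 to 100) for the 3 ligand and 5 receptor genes, with 1 point per library, for the strongest peak of the window (left), the strongest peak whose summit is not within 1 kb of a TSS of another gene (middle) and the strongest peak within 1 kb of a TSS of the gene itself (right). Erbb3 falls from at least 99.61 on the left to between 13.4 and 74.2 in the middle and on the right, while Igf1r stays between 89.9 and 97.5. In the middle Erbb3 also loses its own intron 4 region, whose summit is near the start of a microRNA gene.

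Erbb2, the co-receptor shared by ErbB3 and ErbB4, lies on the plus strand of chromosome 11. Its own promoter region, chr11:98412189-98413198, had a summit at -6 bp from the TSS and percentiles of 92.6 and 84.0 (Input), 90.1 and 90.2 (Myc) and 91.6 and 86.6 (PCM1). Relative to the library medians the pileup was 2.5 and 2.13 (Input), 2.41 and 2.32 (Myc) and 2.93 and 2.31 (PCM1). The groups overlapped, and no contrast passed the threshold (limma, PCM1 minus Input log2 fold change 0.17 ± 0.17 SE, adjusted p = 0.583). The second region found in every library, chr11:98438281-98439231, lay downstream of Erbb2 at the promoter of Mien1, its neighbour, and of Gm12352. It was the strongest peak of the Erbb2 window in all Input and Myc libraries. Its values were 2.56 and 2.67 (Input), 2.96 and 2.98 (Myc) and 1.97 and 1.59 (PCM1), with PCM1 below the other groups. It was lower in PCM1 than in Input (limma, log2 fold change -0.56 ± 0.17 SE, adjusted p = 0.0289) and higher in Myc than in PCM1 (0.75 ± 0.17 SE, adjusted p = 0.00111). The first of these calls was lost without either Input library (adjusted p = 0.106 and 0.199) or PCM1 replicate 2 (adjusted p = 0.182), and with the deposited fold both were lost (-0.26, adjusted p = 0.521, and 0.49, adjusted p = 0.0654).

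Erbb3, the kinase-impaired neuregulin receptor found in cushion mesenchyme and neural crest derivatives, occupies 22130 bp on the minus strand of chromosome 10 and had 3 regions, each with a peak in all 6 libraries. The strongest was not its own. The region chr10:128565481-128566644 lay downstream of Erbb3 at the promoter of Pa2g4, which encodes an ErbB3-binding protein, and had percentiles between 99.61 and 99.98. The promoter region of Erbb3 itself, chr10:128589471-128590774, was far weaker, with percentiles of 66.3 and 17.7 (Input), 74.2 and 63.0 (Myc) and 42.2 and 13.4 (PCM1), and its summit was at -800 bp from the TSS. Its pileup was 66 and 13 (Input), 44 and 34 (Myc) and 16 and 8 (PCM1), or relative to the library medians 0.584 and 0.433, 0.957 and 0.723, and 0.533 and 0.276. Both Myc libraries were above the others. The region was higher in Myc than in PCM1 (limma, log2 fold change 1.12 ± 0.35 SE, adjusted p = 0.0147), a call that was lost without Myc replicate 1 (0.92, adjusted p = 0.161) and without PCM1 replicate 2 (0.64, adjusted p = 0.227), and with the deposited fold (0.43, adjusted p = 0.325).

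The third region, in intron 4 of Erbb3, chr10:128583335-128584093, went the other way. It lay 5824 bp after the TSS, with its summit within 1 kb of the annotated start of the microRNA gene Mir6917. Its pileup was 297 and 59 (Input), 63 and 58 (Myc) and 107 and 113 (PCM1). Relative to the library medians this was 2.63 and 1.97, 1.37 and 1.23, and 3.57 and 3.90, so that PCM1 was highest, Input intermediate and Myc lowest, with no overlap between groups. Myc was lower than PCM1 (limma, log2 fold change -1.52 ± 0.18 SE, adjusted p = 9.51e-08) and lower than Input (-0.81 ± 0.18 SE, adjusted p = 0.00214), and PCM1 was higher than Input (0.71 ± 0.18 SE, adjusted p = 0.00869). The fall in Myc against Input was lost without Input replicate 1 (-0.60, adjusted p = 0.100) and the rise in PCM1 without Input replicate 2 (0.50, adjusted p = 0.231), while Myc against PCM1 passed under every alternative run. With the deposited fold the differences were -0.94 in Myc minus PCM1, -0.52 in Myc minus Input (limma, adjusted p = 0.0753) and 0.42 in PCM1 minus Input (adjusted p = 0.149). The Pa2g4 promoter was also lower in Myc, with values of 12.8 and 12.6 (Input), 8.46 and 8.02 (Myc) and 14.3 and 14.0 (PCM1). Its log2 fold change was -0.63 ± 0.08 SE against Input (limma, adjusted p = 9.98e-07; with quantile normalization -0.16, adjusted p = 0.243) and -0.78 ± 0.08 SE against PCM1 (adjusted p = 9.17e-09; with quantile normalization -0.38, adjusted p = 0.00112). With the deposited fold neither passed, at -0.07 (limma, adjusted p = 0.872) and -0.29 (adjusted p = 0.179). Beside these, 5 of the 6 cardiomyocyte marker promoters were lower in Myc than in PCM1, with a median log2 fold change of -0.92 over the 6, where 9.16% of the strongest promoter regions of all protein-coding genes were lower and their median was 0.28.

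Erbb4, the neuregulin receptor of cardiomyocytes, spans 1075874 bp on the minus strand of chromosome 1. It held 28 and 14 peaks (Input), 23 and 23 (Myc) and 16 and 13 (PCM1). The region chr1:69105670-69107245, which held the strongest peak in all libraries but Myc replicate 1, covered the start of intron 1 and the TSS of Gm16076, with its summit 1561 bp after the nearest Erbb4 TSS. Its percentiles were 90.2 and 82.8 (Input), 89.8 and 85.3 (Myc) and 82.8 and 75.3 (PCM1), and relative to the library medians the pileup was 2.28 and 2.27, 2.61 and 2.00, and 1.90 and 1.62. PCM1 was the lowest group on that scale, yet the difference from Input did not pass the threshold (limma, log2 fold change -0.37 ± 0.19 SE, adjusted p = 0.206). Just upstream, chr1:69108423-69108766 had its summit at -537 bp from the 5′ end of the gene and had a peak in all Input and Myc libraries, with pileups of 121 and 26 and of 55 and 49, and none in either PCM1 library. A peak in both Input and both Myc libraries and no other was found at 3 of 200 regions (1.5%), against 2.26% of all regions, the others being intronic, at 68943377 in Erbb4 and at 32749735 in Nrg1. No region of the 8 windows had the patterns of PCM1 alone, Input with PCM1, or Myc with PCM1, which held for 0.254, 0.268 and 0.104% of all regions.

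Another 7 intronic regions of Erbb4 had a peak in all 6 libraries, 5 of them in intron 1 and a pair in intron 3. One of them, chr1:68973448-68974156, lay 133828 bp after the nearest TSS and held the strongest peak of the window in Myc replicate 1, with percentiles of 87.2 and 77.8 (Input), 90.5 and 82.5 (Myc) and 77.2 and 74.9 (PCM1). None of the 7 passed the threshold of a contrast with all libraries. This region was higher in Myc than in PCM1 without Myc replicate 2 (limma, log2 fold change 0.93, adjusted p = 0.0332), and that at 69025092 higher in PCM1 than in Input without Input replicate 1 (1.61, adjusted p = 0.0216).

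Egfr, the receptor of EGF and HB-EGF, lies on the plus strand of chromosome 11, and its strongest peak was in intron 1 in every library. The region chr11:16800351-16800924, 48485 bp after the nearest TSS, had percentiles of 95.9 and 91.1 (Input), 92.3 and 92.1 (Myc) and 89.1 and 91.0 (PCM1). Its pileup was 341 and 80 (Input), 98 and 94 (Myc) and 57 and 63 (PCM1), or 3.02 and 2.67, 2.13 and 2.00, and 1.90 and 2.17 relative to the library medians. Both Input libraries were above the other 4, but neither Myc minus Input (limma, log2 fold change -0.46 ± 0.18 SE, adjusted p = 0.0780) nor PCM1 minus Input (-0.48 ± 0.18 SE, adjusted p = 0.0703) passed the threshold. Myc minus Input passed without PCM1 replicate 1 (limma, adjusted p = 0.0423) or PCM1 replicate 2 (adjusted p = 0.0450). The promoter region of Egfr, chr11:16751955-16753281, was weaker, with percentiles of 68.6 and 60.1 (Input), 49.0 and 64.7 (Myc) and 61.0 and 61.1 (PCM1). Its signal relative to the library medians lay between 0.478 and 0.833, and the groups overlapped.

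Igf1r, the receptor of IGF1 and IGF2, spans 280842 bp on the plus strand of chromosome 7 and held the most peaks, with 52 and 27 (Input), 36 and 39 (Myc) and 28 and 35 (PCM1). Of its 65 regions, 17 had a peak in all 6 libraries. The region chr7:67950778-67952463, the strongest of the window in all libraries but PCM1 replicate 1, lay upstream of the gene with its summit at -1018 bp from the TSS and reached into the 1 kb before it. Its percentiles were 97.5 and 97.4 (Input), 97.2 and 96.7 (Myc) and 92.6 and 89.9 (PCM1). The pileup was 647 and 213 (Input), 275 and 264 (Myc) and 113 and 102 (PCM1), which relative to the library medians was 5.73 and 7.10, 5.98 and 5.62, and 3.77 and 3.52. Both PCM1 libraries were below the other 4. The region was lower in PCM1 than in Input (limma, log2 fold change -0.81 ± 0.12 SE, adjusted p = 3.01e-05) and higher in Myc than in PCM1 (0.67 ± 0.12 SE, adjusted p = 8.46e-05). These calls passed with any library left out, but with the authors' own fold in place of the pileup the differences were -0.29 (adjusted p = 0.570) and 0.02 (adjusted p = 0.960).

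Within Igf1r, intronic regions differed in both directions. In intron 2, chr7:68128954-68129592 had relative pileups of 2.15 and 2.00 (Input), 3.41 and 2.77 (Myc) and 2.1 and 1.45 (PCM1), with Myc above the other groups. It was higher in Myc than in PCM1 (limma, log2 fold change 0.82 ± 0.19 SE, adjusted p = 0.00115, and 0.67 with adjusted p = 0.0582 without Myc replicate 1) and than in Input (0.57 ± 0.19 SE, adjusted p = 0.0401). The call against Input was lost without any 1 of the Input and Myc libraries, with adjusted p-values of 0.103 and 0.246 without Input replicates 1 and 2, and of 0.370 and 0.0644 without Myc replicates 1 and 2. Also in intron 2, chr7:68021758-68022156 had 1.94 and 1.5 (Input), 1.20 and 1.23 (Myc) and 1.90 and 1.76 (PCM1), and was lower in Myc than in PCM1 (-0.59 ± 0.21 SE, adjusted p = 0.0345).

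A pair of further Igf1r calls were close to the threshold. In intron 1, chr7:67961925-67962241 had 0.655 and 0.800 (Input), 1.07 and 1.13 (Myc) and 0.800 and 0.517 (PCM1), and was higher in Myc than in PCM1 (limma, log2 fold change 0.77 ± 0.30 SE, adjusted p = 0.0495; with the replicate number as a block, adjusted p = 0.0519). In intron 2, chr7:68080144-68080865 had 1.12 and 0.867 (Input), 0.457 and 0.617 (Myc) and 0.667 and 0.966 (PCM1), and was lower in Myc than in Input (-0.89 ± 0.31 SE, adjusted p = 0.0496). The calls at 68021957, 67962098 and 68080681 were each lost without either Myc library. The adjusted p-values were 0.141 and 0.102 at the first, 0.153 and 0.195 at the second, and 0.336 and 0.0728 at the third. The call at 68080681 was also lost without either Input library (adjusted p = 0.304 and 0.123), that at 67962098 without Input replicate 1 (0.0579), Input replicate 2 (0.0629) or PCM1 replicate 2 (0.337), and that at 68021957 without either PCM1 library (0.116 and 0.0505). With the deposited fold all 5 calls at these Igf1r introns were lost, at 0.27 (limma, adjusted p = 0.458) and 0.25 (adjusted p = 0.630) for 68129188 against PCM1 and Input, -0.34 (adjusted p = 0.246) for 68021957, 0.75 (adjusted p = 0.0733) for 67962098 and -0.64 (adjusted p = 0.263) for 68080681.

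**Figure D2:**
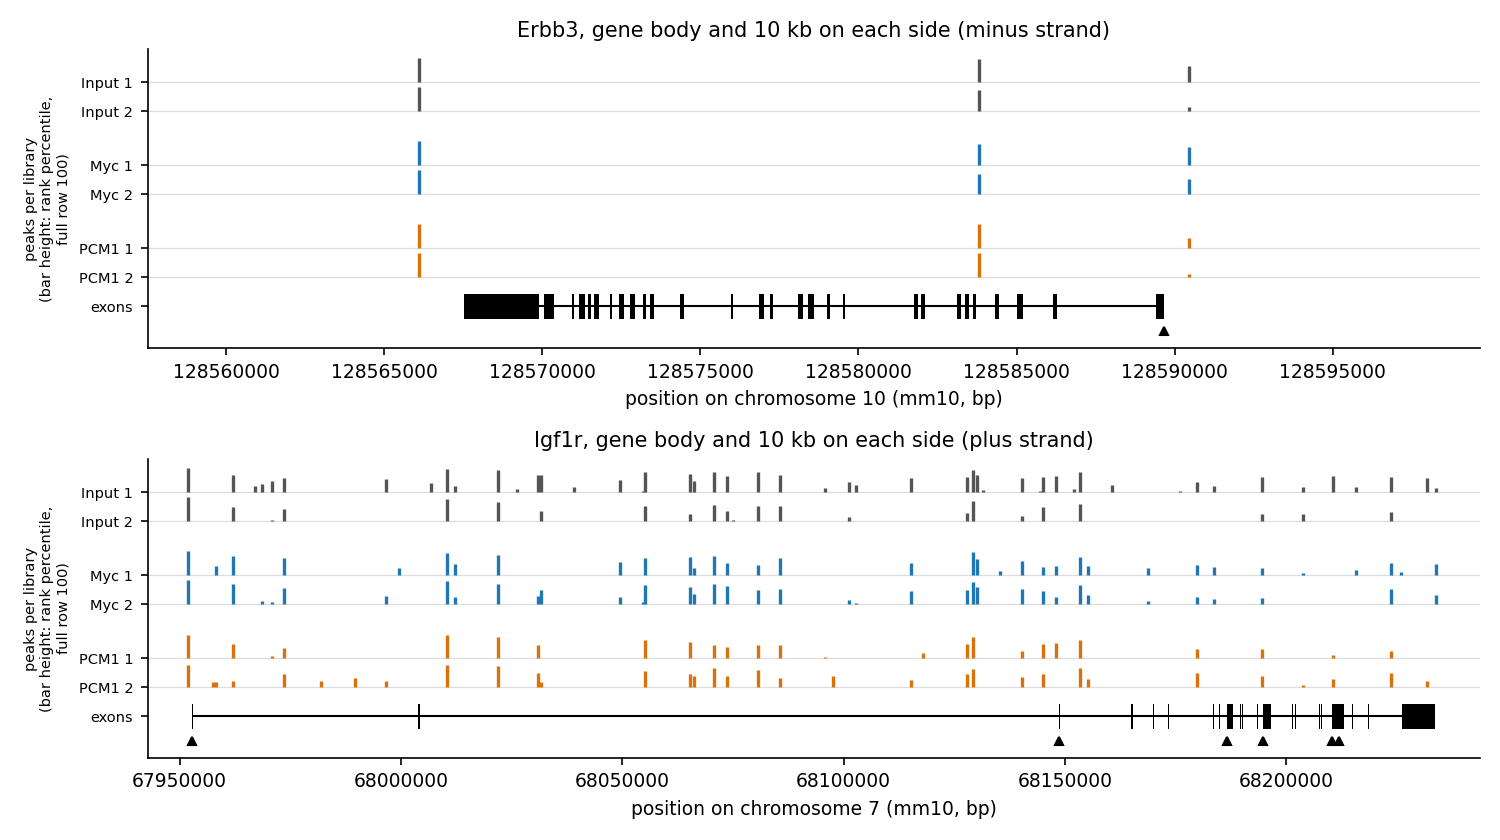
Peaks of the 6 libraries along Erbb3 and Igf1r with 10 kb on each side (x axis, mm10 position in bp), where each bar is a region with a peak in that library, drawn at the summit of the strongest library, its height is the rank percentile, black boxes are exons and triangles are annotated TSSs. Erbb3 has 3 regions, of which the left one is the Pa2g4 promoter, and Igf1r has 65, of which 17 have a peak in all 6 libraries.

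Over the 45 regions of the 8 windows that could be fitted, limma called 10 in at least 1 contrast. Myc minus Input was higher at 1 region (2.22%, against 4.16% of all regions) and lower at 3 (6.67%, against 9.12%). PCM1 minus Input was higher at 1 (2.22%, against 2.88%) and lower at 2 (4.44%, against 7.91%). Myc minus PCM1 was higher at 6 (13.3%, against 15.1%) and lower at 3 (6.67%, against 13.7%). With the deposited fold in place of the recovered pileup, only 1 of the 16 calls over these contrasts passed the threshold, that of Erbb3 intron 4 between Myc and PCM1 (limma, log2 fold change -0.94, adjusted p = 0.000332). The contrasts share groups, so that a region can count in more than 1 of them. All these shares were below those of the genome, but each rests on 1 to 6 regions and the differences were not tested. Only 18 of the 45 regions had a pileup above the median of all fitted regions. The median log2 fold changes over the 45 regions were 0.13, 0.03 and 0.17, against -0.02, -0.04 and -0.00 over all regions. With the libraries scaled by genome-wide background in place of their medians, the median of all regions shifted by 0.16 in Myc minus Input, and its split of calls went from 2035 higher and 4458 lower to 4271 higher and 2357 lower. In PCM1 minus Input the shift was 0.12 and the split went from 1408 higher and 3864 lower to 2378 higher and 1973 lower, with quantile normalization between both scalings (2308 higher and 3293 lower, and 1772 higher and 2550 lower). Of the 16 calls at the 8 genes, 13 passed with each of these scalings, and none changed direction with quantile normalization. Background scaling moves all regions of a contrast alike and by less than the size of any of these calls. It could therefore not turn their direction.

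**Figure D3:**
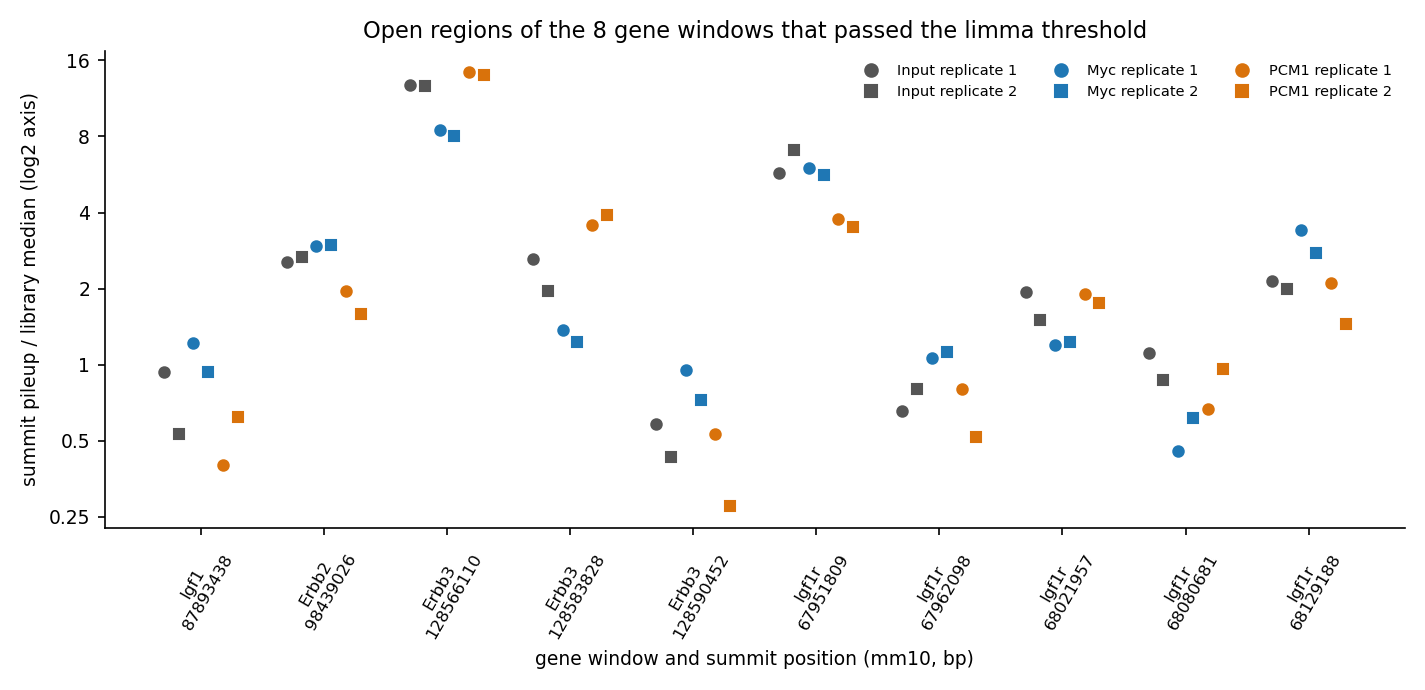
Summit pileup divided by the library's median pileup (y axis, log2 scale) at the 10 regions that passed the limma threshold in at least 1 contrast, named by gene window and summit position (x axis), with 1 point per library. The intron 4 region of Erbb3 (128583828) runs from 1.23 in Myc to 3.90 in PCM1 without overlap between groups, and the upstream region of Igf1r (67951809) is lowest in PCM1, at 3.77 and 3.52.

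Receptor genes ranked above ligand genes when every peak of the window was counted. The mean percentile of the strongest peak was 95.4 and 92.0 for receptors against 89.2 and 78.9 for ligands in Input, 94.8 and 93.6 against 88.9 and 88.4 in Myc, and 91.3 and 88.6 against 84.9 and 81.9 in PCM1. The difference was 7.23 ± 2.94 points (SD over 6 libraries) and positive in 6 of 6. Without peaks whose summit lay within 1 kb of a TSS of another gene, the difference was -3.64 ± 4.25. This filter takes from Erbb3 the Pa2g4 promoter and also its own intron 4 region, which lies near the start of a microRNA gene. The part of each in the change was not tested. With promoter peaks only the difference was -1.48 ± 4.87, with values of 0.614 and 4.29 (Input), 1.25 and -1.42 (Myc) and -3.96 and -9.69 (PCM1). Ranked by fold it was 1.87 ± 1.97. These data therefore gave no order of receptors over ligands that held under each way of choosing the peak. Among the genes, the mean percentile over the 6 libraries was 99.9 ± 0.143 (SD, n = 6) for Erbb3 with the Pa2g4 promoter, 95.2 ± 3.18 for Igf1r, 91.9 ± 2.25 for Egfr, 91.5 ± 3.1 for Erbb2, 91.1 ± 1.5 for Nrg1, 86.4 ± 4.14 for Nrg4, 84.5 ± 5.63 for Erbb4 and 78.6 ± 8.07 for Igf1. In this order the means of Egfr, Erbb2 and Nrg1, of Nrg4 and Erbb4, and of Erbb4 and Igf1 were closer than the larger of their SDs. Those of Erbb3 and Igf1r, Igf1r and Egfr, and Nrg1 and Nrg4 were further apart than that. These SDs span groups and depths that the genes share, so they do not measure the spread of a difference within libraries. Within libraries, Igf1 was below Erbb4 in all but Myc replicate 2. The distance of Igf1r from Egfr differed by group, with means of 97.4 against 93.5 (Input), 97.0 against 92.2 (Myc) and 91.3 against 90.1 (PCM1). In PCM1 replicate 2, Igf1r (89.9) was below Egfr (91.0) and Nrg1 (90.4). Without peaks near a TSS of another gene, Erbb3 was last at 46.1, and Erbb2 (89.2) was below Nrg1. That Erbb3 value is of its promoter region alone, since the filter also left out its own intron 4 region. Ranked by fold, the means were 97.8 for Egfr, 97.1 for Erbb3, 94.3 for Nrg1, 93.8 for Nrg4, 91.0 for Erbb4, 90.8 for Igf1r, 89.3 for Erbb2 and 85.9 for Igf1, so that Igf1r fell below Egfr and Nrg1 and Nrg4 lay close together. The median over protein-coding genes lay between 84.0 and 91.1 in the 6 libraries, so most of these genes were near the middle of the genome.

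By group, both Myc libraries were above all 4 others in the strongest peak at 2 of 8 genes (Igf1, and Erbb2 through the Mien1 promoter), against 22.7% of protein-coding genes, and below at none, against 5.45%. Both PCM1 libraries were below all others at 2 (Egfr and Igf1r), against 23.5%, and above at 1 (Erbb3, through the Pa2g4 promoter), against 2.95%. Input was above at 1 (Igf1r), against 4.71%, and below at none, against 1.36%. Percentiles depend on how many peaks a library lists, and both PCM1 libraries were shallow. With the strongest 75336 peaks of every library, Myc stayed above at Igf1 and Erbb2 and PCM1 below at Igf1r and above at Erbb3, while Input was no longer above at Igf1r, Egfr moved from PCM1 below to Input above, and Nrg1 had PCM1 above and Myc below. Ranked by fold, Myc was still above at Erbb2 and PCM1 above at Erbb3, PCM1 was below at Nrg4, and the patterns of Igf1, Egfr and Igf1r were lost.

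The genes closest to each member over the 6 strongest percentiles, by Euclidean distance in percentile points, were Smarcd3 (0.783), Rapgef3 (1.74) and Nudcd3 (1.75) for Nrg1. For Nrg4 they included Kctd14 (1.61) and Slco2a1 (1.67), and for Igf1 they were Aldh8a1 (2.52), Mpp2 (3.60) and Gtf2f2 (4.05). For Erbb2 they were Agbl3 (1.5), Ttc4 and Mroh7 (both 1.61), and for Erbb4 Tusc1 (2.47), Fmnl2 (3.27) and Spats2l (3.31). For Egfr they were Carmil1 (1.85), Kctd10 (1.93) and Pcbp4 (2.02), and for Igf1r Rfk (1.31), Epp13 and Zfp667 (both 1.86). The closest to Erbb3 was Pa2g4 at a distance of 0, because both windows share the same strongest peak, followed by Map3k12 and Tarbp2 (both 0.175).

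The base sequence around summits was read from GRCm38.p6, the RefSeq genome of the mm10 build, in a window centred on each summit, and 5 motifs of cardiac and growth-related factors were searched on both strands. The median GC content of the 45 regions found in all libraries was 52.2%, against 54.2% over the 48861 such regions. The GATA motif AGATAA was present in 2 of the 45 windows (4.44%, against 10.2% of the 48861), the TEAD motif GGAATG in 9 (20%, against 14.2%), the AP-1 motif TGANTCA in 2 (4.44%, against 7.48%), the MEF2 motif CTANNNNTA in 9 (20%, against 17.4%) and the NKX2-5 motif TNAAGTG in 5 (11.1%, against 9.35%). A match is a description of letters only. The windows below are those of the strongest Egfr region and of some of the regions that passed a contrast, at Erbb3, Igf1r and Igf1. They are printed 5′ to 3′ on the plus strand, with the summit at base 101 and motif matches in capitals. The capitals mark the NKX2-5 letters in the Egfr and Erbb3 windows and the AP-1 letters in the first Igf1r window. The upstream window of Igf1r, with 78.1% GC, and the Igf1 window held none of the 5 motifs and are all in lower case.
Egfr intron 1, chr11:16800615-16800815: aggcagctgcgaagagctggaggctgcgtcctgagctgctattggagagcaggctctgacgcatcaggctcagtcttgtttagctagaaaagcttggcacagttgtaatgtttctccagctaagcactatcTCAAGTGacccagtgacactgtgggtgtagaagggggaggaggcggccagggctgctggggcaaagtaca
Erbb3 intron 4, chr10:128583728-128583928: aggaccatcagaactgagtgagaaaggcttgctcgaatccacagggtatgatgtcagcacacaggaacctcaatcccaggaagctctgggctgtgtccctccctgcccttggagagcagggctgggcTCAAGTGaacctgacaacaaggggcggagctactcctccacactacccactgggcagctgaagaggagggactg
Igf1r intron 2, lower in Myc, chr7:68080581-68080781: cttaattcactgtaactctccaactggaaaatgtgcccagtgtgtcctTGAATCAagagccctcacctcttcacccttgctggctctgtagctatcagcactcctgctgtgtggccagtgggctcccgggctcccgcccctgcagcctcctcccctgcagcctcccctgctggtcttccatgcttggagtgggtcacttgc
Igf1r upstream, chr7:67951709-67951909: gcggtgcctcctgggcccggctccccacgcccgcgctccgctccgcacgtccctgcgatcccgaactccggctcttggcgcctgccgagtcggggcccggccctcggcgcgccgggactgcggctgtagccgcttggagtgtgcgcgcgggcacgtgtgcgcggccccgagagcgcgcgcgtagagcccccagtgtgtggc
Igf1 intron 2, chr10:87893338-87893538: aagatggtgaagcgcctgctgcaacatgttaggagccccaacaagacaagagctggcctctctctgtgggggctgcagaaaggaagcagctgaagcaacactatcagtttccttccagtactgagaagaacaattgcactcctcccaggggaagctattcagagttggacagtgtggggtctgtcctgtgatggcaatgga

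Downstream and beside the 8 genes, 66 genes of the same pathways were examined at their strongest promoter region, of which 61 had a region with a peak in all 6 libraries. In Myc minus Input, 5 of the 61 were higher and 9 lower, against 10.1 and 11% of the 13358 protein-coding genes with such a promoter region. In PCM1 minus Input, 1 was higher and 19 lower, against 1.41 and 21.7%. In Myc minus PCM1, 22 were higher and 7 lower, against 36.3 and 9.16%. The median log2 fold changes over the 61 were -0.01, -0.27 and 0.22, against 0.07, -0.22 and 0.28 over all these promoters. Lower signal in PCM1 was thus common at promoters in general. The medians of the pathway genes were near those of all promoters. The 19 of 61 lower in PCM1 than in Input were a larger share than the 21.7% of all promoters. That difference was not tested. With background scaling 7 of the 61 were lower, against 11.1% of all promoters. The split depended on the scaling, with 8 higher and 6 lower in Myc minus Input under quantile normalization and 9 and 6 with background scaling, and 2 and 10, and 2 and 7, in PCM1 minus Input. No pathway promoter passed with the deposited fold in Myc minus Input or PCM1 minus Input (limma, with 5 and 8 of the 61 at an unadjusted p under 0.05), where at most 0.404% of all promoters were called in a direction. In Myc minus PCM1, Igf2r (limma, log2 fold change 0.89, adjusted p = 0.0439) and Nras (0.51, adjusted p = 0.0476) were then higher and the Erk kinase gene Mapk3 (-0.82, adjusted p = 0.0234) lower, against 5.26 and 2.82% of all promoters. All alternatives for the pathway genes were chosen after the data had been seen. Among the 8 members, by the same measure, PCM1 minus Input was lower at 1 (Igf1r), and Myc minus PCM1 was higher at 2 (Igf1r and Erbb3).

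The 5 largest log2 fold changes that passed between Myc and Input were at Foxo1, Spry1, Akt1, Pik3r1 and Akt2. Foxo1, a transcription factor that Akt restrains, had promoter percentiles of 89.5 and 81.2 (Input), 96.7 and 95.0 (Myc) and 89.2 and 87.6 (PCM1), and was higher in Myc than in Input (limma, log2 fold change 1.07 ± 0.16 SE, adjusted p = 5.17e-06). Spry1, an inhibitor of receptor tyrosine kinase signalling, had 85.9 and 75.3 (Input), 92.6 and 91.2 (Myc) and 61.3 and 69.7 (PCM1), and was higher in Myc than in Input (0.93 ± 0.21 SE, adjusted p = 0.00238) and than in PCM1 (1.47 ± 0.21 SE, adjusted p = 2.24e-06). Both genes were highest in the Myc libraries. The kinase genes Akt1 and Akt2 and the PI3K regulatory subunit gene Pik3r1 went the other way, with Myc lower than Input by log2 fold changes of -0.74, -0.72 and -0.72. The rise of Spry1 against Input was lost without Myc replicate 1 (limma, 0.85, adjusted p = 0.0741), and the fall of Akt1 without Input replicate 1 (-0.62, adjusted p = 0.103) or Myc replicate 1 (-0.68, adjusted p = 0.0754). None of these 5 calls passed with the deposited fold, at 0.45 for Foxo1 (limma, adjusted p = 0.293), 0.32 for Spry1 (0.531), -0.74 for Akt1 (0.197), -0.37 for Akt2 (0.376) and -0.50 for Pik3r1 (0.151), and neither did Spry1 against PCM1 (0.56, adjusted p = 0.103). Of the 12 PI3K and Akt genes, 1 was higher and 3 lower in Myc than in Input, and 4 were higher and 2 lower in Myc than in PCM1. Over all tested promoters 10.1 and 11% were higher and lower in the first contrast and 36.3 and 9.16% in the second, and 4 of 12 higher was near the 36.3% of all promoters.

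In PCM1, the largest falls against Input were at the IGF-binding protein gene Igfbp7 (limma, log2 fold change -1.08 ± 0.24 SE, adjusted p = 0.00249), the IGF2 scavenger receptor gene Igf2r (-0.89 ± 0.24 SE, adjusted p = 0.0120), Lrig3 (-0.76 ± 0.23 SE, adjusted p = 0.0306), the kinase gene Braf (-0.75 ± 0.21 SE, adjusted p = 0.0157) and Errfi1, an inhibitor of ErbB kinases (-0.68 ± 0.15 SE, adjusted p = 0.00182). Between Myc and PCM1, Lrig3 (1.39), Nras (1.23) and Igfbp7 (1.15) were higher and Akt1 (-1.12) lower in Myc. Each fall in PCM1 was lost with some library left out. That of Igfbp7 was lost without Input replicate 2 (limma, adjusted p = 0.0502), that of Errfi1 likewise (-0.47, adjusted p = 0.149), and that of Igf2r without Input replicate 1 (adjusted p = 0.112), Input replicate 2 (0.0802) or PCM1 replicate 1 (-0.59, adjusted p = 0.132). That of Braf was lost without Input replicate 1 (limma, adjusted p = 0.230) or PCM1 replicate 1 (0.109), and with background scaling (0.0521). That of Lrig3 was lost without any 1 library but PCM1 replicate 2 (limma, adjusted p between 0.0540 and 0.210) and with background scaling (0.0796). All 5 were lost with the deposited fold, at -0.49 for Igfbp7 (limma, adjusted p = 0.328), -0.97 for Igf2r (0.105), -0.28 for Lrig3 (0.597), -0.25 for Braf (0.638) and -0.03 for Errfi1 (0.953). Between Myc and PCM1 the calls at Lrig3 (limma, 0.56, adjusted p = 0.0966), Igfbp7 (0.28, adjusted p = 0.449) and Akt1 (-0.71, adjusted p = 0.0968) were lost on that scale too. Of the 12 negative regulators, 6 were lower in PCM1 than in Input and none higher, with a median log2 fold change of -0.38, where 21.7% of all tested promoters were lower and the median was -0.22. Of the 9 Ras and Erk genes 3 were lower and 1 higher, with a median of -0.37. Between Myc and PCM1, 6 of the 9 Ras and Erk genes were higher and 1 lower, with a median of 0.53, and 6 of the 12 negative regulators were higher and 1 lower, with a median of 0.31, where 36.3 and 9.16% of all tested promoters were higher and lower and the median was 0.28.

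Of the remaining lists, 9 of the 10 IGF family genes could be fitted, with 1 lower in Myc than in Input, 3 lower in PCM1 than in Input, and 2 higher and 1 lower in Myc than in PCM1. Of the 10 adaptors 9 could be fitted, with 1 higher and 2 lower in Myc minus Input, 3 lower in PCM1 minus Input, and 3 higher and 1 lower in Myc minus PCM1. All 4 sheddases could be fitted, with 1 lower in PCM1 than in Input and 1 higher in Myc than in PCM1. Among 9 other ErbB ligands 6 could be fitted, with 1 lower in Myc than in Input and 1 lower in Myc than in PCM1. Over all tested promoters, 10.1% were higher and 11% lower in Myc minus Input, 1.41% higher and 21.7% lower in PCM1 minus Input, and 36.3% higher and 9.16% lower in Myc minus PCM1. The median log2 fold changes in these contrasts were -0.01, -0.36 and 0.19 for the IGF family, 0.00, -0.07 and 0.08 for the adaptors, -0.05, -0.33 and 0.27 for the sheddases and -0.17, -0.09 and -0.19 for the ErbB ligands, against 0.07, -0.22 and 0.28 over all tested promoters. The ErbB ligands held the least open of the pathway genes. The mean percentile of the strongest peak was 17.5 for Nrg3 and 30.3 for Epgn, which had no promoter peak in any library, followed by the binding protein gene Igfbp1 at 34.8. The percentiles of Nrg3 were 30.8 and 12.9 (Input) and 41.1 and 20.2 (Myc), with no peak in PCM1, far below Nrg1 and Nrg4 in every library.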

How the data were processed

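The values were peak lists of 6 Omni-ATAC-Seq libraries, called by the authors for each library separately. Per the submitters' processing notes, the tools named included Bowtie2 2.3.3.1, Picard 2.2.1, MACS2 2.1.0.20160309, FastQC 0.11.5 and bedtools, with mm10. The deposited score is the −log10 of the q-value times 10, shortened by the authors' peak caller to a whole number with an upper limit. The deposited fold enrichment is the summit pileup over the background that the authors' caller estimated. The deposited −log10 p and −log10 q values are those the authors' caller gave at each summit, and no listed q-value was above 0.05.

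From these, the whole-number pileup at each summit was recovered from fold and −log10 p within a tolerance of 0.02, and came out whole for at least 99.9977% of the peaks of each library. Peaks that overlapped by at least 1 bp were joined into regions. Contrasts were fitted on log2 pileup, less the library's median, with limma 3.58.1 in R 4.3.3 over all 6 libraries, with Benjamini-Hochberg adjustment over all 48861 regions with a peak in each library. Genes were those of GENCODE M21, and Python 3.11.15, numpy 2.4.6, pandas 2.3.3, scipy 1.17.1 and matplotlib 3.10.9 were used. The members, the pathway lists and the marker lists were chosen with earlier results of these data known. The regions named by rule were, for each member, that with the highest median percentile, the strongest within 1 kb of a TSS of the gene, those found in both libraries of 1 group alone and those past the threshold of a contrast. Other regions given were chosen after their values were seen. Pathway genes were named where they had the 5 largest changes of a contrast among those past the threshold, or were the 3 with the lowest mean percentile, and the 3 nearest genes by distance for each member. Some items these rules cover are not reported here. The alternatives were another q-value threshold, equal numbers of peaks, ranks by fold, other flanks and promoter widths, peaks away from other genes' starts, the deposited fold, other scalings, the replicate block, only the higher pileups, and each library left out.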

Additional observations from a re-analysis of the deposited data

How the results depend on the processing

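With the deposited fold in place of the recovered pileup, limma called 3 regions of the 8 windows in place of 10, with 0 in place of 4 in Myc minus Input, 0 in place of 3 in PCM1 minus Input and 3 in place of 9 in Myc minus PCM1. At an unadjusted p under 0.05 the counts with the deposited fold were 5, 3 and 12 of 45 regions. Of these 3 calls, 1 was shared with the 16 calls on the pileup, and the others were the internal Nrg1 promoter (-0.48, adjusted p = 0.0374) and the Igf1 promoter (-0.80, adjusted p = 0.0449), both lower in Myc than in PCM1. Over all regions the deposited fold gave 40 higher and 154 lower in Myc minus Input, 76 and 202 in PCM1 minus Input, and 1991 and 2081 in Myc minus PCM1, against 7390 and 6711 on the pileup in the last. The cause was not tested. Only 18 of the 45 regions had a pileup above the median and were fitted in that alternative, and 6 of them differed, with all 12 calls among the 16.

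Leaving out 1 library at a time gave between 4 (without Myc replicate 1) and 10 regions that differed, between 1 (without Input replicate 1) and 5 in Myc minus Input, between 1 (without Input replicate 2) and 3 in PCM1 minus Input, and between 4 (without Myc replicate 1) and 8 in Myc minus PCM1. The library left alone in its group is there assumed to vary like the other groups. Of the 16 calls, 1 passed under all alternatives run for it and 0 changed direction. Beside the losses given with each region, the fall of Erbb2 98439026 in PCM1 was lost with quantile normalization (adjusted p = 0.0586) and background scaling (0.101), Igf1r 67962098 with quantile normalization (0.0602), and Igf1r 68021957 (0.0508) and 68080681 (0.115) with background scaling. Calls were also gained with a library left out, at the Nrg4 promoter, Erbb4 68973928 and 69025092 and Egfr 16800715 as given with them, and without PCM1 replicate 2 at Igf1 87872467 (1.02, adjusted p = 0.0365) and Igf1r 68010380 (-0.52, adjusted p = 0.0452), both in Myc minus PCM1.

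With the replicate block, 9 regions differed, with 4, 3 and 8 in the contrasts. Libraries with the same replicate number did not deviate together, with correlations across regions of 0.0072, -0.0041 and 0.0058, so the number does not pair them.

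The mean percentile of the strongest peak was 82.3 in place of 89.9 without peaks near a TSS of another gene. Receptor minus ligand was 1.87 ranked by fold, -3.64 without peaks near a TSS of another gene and -1.48 with promoter peaks only, and between 6.04 and 7.63 with 1 library left out. A promoter peak in 6 of 6 libraries was found at 5 of 8 genes at the 5′ end of the gene model, without Nrg1, Igf1 and Erbb4 (56.1% of protein-coding genes), and at 6 of 8 within 200 bp of a TSS, without Erbb3 and Erbb4 (57.7%). Patterns of a gene with both libraries of a group apart from the others numbered 3 in place of 6 when ranked by fold, of which Erbb2 and Erbb3 were among the 6. Alternatives for the pathway promoters were chosen after the data had been seen. On the deposited fold 0 in place of 14 passed in Myc minus Input, 0 in place of 20 in PCM1 minus Input and 3 in place of 29 in Myc minus PCM1, and PCM1 minus Input gave 12 with quantile normalization and 9 with background scaling. With 1 library left out the counts were between 7 (without Myc replicate 1) and 18, between 8 (without either Input library) and 18, and between 15 (without Myc replicate 1) and 28. Of the 15 calls named at pathway promoters, 1 (Nras) passed under all 11 alternatives and 0 changed direction. Depth limits what a missing peak can show in the shallow libraries.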
